A study of Arabidopsis thaliana with 18 samples.

Results

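The recovery of Arabidopsis thaliana roots from phosphate (Pi) starvation was measured as the level on 3 replete root arrays minus the level on 3 starved root arrays. Every probe set of the ATH1 array was compared except the 64 controls of the manufacturer, which left 22746 of 22810 probe sets, and 6 of the 18 arrays of the series enter the difference. All plants were wild-type Col-0 on rock wool over aerated MGRL hydroponic medium, where they grew for 20 days with Pi. Starved plants then spent 10 days in medium in which MES buffer took the place of sodium phosphate and were 30 days old at harvest. Replete plants had the same 10 days without Pi, followed by 3 days in full-strength medium, and were 33 days old. Mock plants stayed in full-strength medium and were 30 days old, so no array holds roots of 33-day-old plants that were never starved, and the return of Pi and the 3 further days of age cannot be told apart. The labels name the arrays of 1 group biological replicates, and the study speaks of 3 replicate experiments without saying which arrays of different groups belong to one experiment. The p-values and standard errors (SE) rest on 1 spread per probe set, pooled within the groups of all 18 arrays, shoots included. The SE of a gene can therefore be smaller than the spread of its own root arrays would give.

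Roots take up Pi through proton-coupled PHT1 transporters of the plasma membrane and load it into the xylem with the help of PHO1. When Pi runs short, MYB-type factors of the PHR1 family switch on transporters, acid phosphatases and enzymes that replace membrane phospholipids with galactolipids and sulfolipids, and SPX proteins hold those factors back while Pi is plentiful. Starved roots are also known for long and dense root hairs, the tubular outgrowths of epidermal cells that enlarge the absorbing surface.

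The deposited values are log2 levels, so a difference of 1 is a 2-fold change, and a probe set was called at a Benjamini-Hochberg adjusted p at or under 0.001 in the limma fit over all 18 arrays. By this rule 537 probe sets were higher after Pi return, 2.36% of those tested, and 634 were lower, 2.79%. On every one of these 1171 probe sets, 5.15% of those tested, the 3 replete values and the 3 starved values did not overlap, against 36.6% of all probe sets. The falls reached further than the rises. A change of at least 1 log2 unit was seen for 573 called probe sets, 2.52% of those tested. One of at least 2 log2 units was seen for 76 of the lower and 31 of the higher probe sets, and of at least 3 for 30 and 5. The median difference was 0.90 among the higher probe sets, -1.06 among the lower and -0.05 over all probe sets. Centring each array on 3 reference genes turned the split to 748 higher and 426 lower, 63.7% higher against 45.9% before.

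The mock arrays show how far the levels came back, and they enter both sides here as a description only, because response (starved minus mock) and recovery share the starved arrays. The lower probe sets had a median of 0.80 for starved minus mock and -0.23 for replete minus mock. The higher ones had -0.50 and 0.39. In the response 1.55% of all probe sets were called higher and 0.708% lower. Of the 634 lower probe sets in the recovery 309 were called higher in the response, and of the 537 higher ones 110 were called lower. Replete and mock roots differed by the same threshold on 15 probe sets of the whole array, 7 of which were also called in the recovery. These 7 are described further below.

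Genes were named through the platform's table, which gave 1 gene for 13513 probe sets, and otherwise through a table of the study that pairs probe set and locus and named 551 more. The study listed a probe set there because it had called it on these same arrays. Counts that rest on its names are therefore no share of a gene group and no independent evidence, and they are given apart. Over the 28 gene lists used below, 80 genes had a platform name, of which 6 were higher and 11 lower with a median of -0.21. For all platform-named probe sets the calls were 2.06% higher and 2.49% lower with a median of -0.06. A further 96 listed genes had a study name only, with 28 higher and 60 lower.

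Starved array 3 and replete array 1 stood apart from the others of their groups. To place an array on calls that it did not enter, the fit was repeated without it. Its level was then set on a scale. On it 0 is the mean of the opposite group and 1 the mean of the other 2 arrays of its own group. Starved array 3 lay at a median of 0.606 over 1532 probe sets, with quartiles of 0.421 and 0.802. Starved arrays 1 and 2 lay at 1.06 and 1.11 on the probe sets called without each of them. Replete array 1 lay at 0.783 over 1141 probe sets, and replete arrays 2 and 3 at 0.948 and 0.986. For the other arrays the own-group mean holds the array that stood apart, which raises their positions. Each array was also placed on probe sets of its own, so these positions are not compared like for like. Without starved array 3, 830 probe sets were higher and 702 lower. Without replete array 1 the counts were 568 and 573, and without both arrays 959 and 703. Leaving out starved array 1 or 2 or replete array 2 or 3 brought the total down to between 571 and 705.

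The distance of these arrays was not the same for all genes. Among probe sets called lower without it, starved array 3 kept a median of 0.724 of the starved distance, and among those called higher 0.513. The listed genes differed likewise. Most of them bear study names, and the study's calls had used these arrays, so their positions are not independent of the arrays. Starved array 3 lay at 0.862 for 17 root hair genes, 0.840 for 11 membrane lipid genes, 0.833 for 9 phosphatases and 0.798 for 8 Pi transport genes. Here the array lay nearer the other starved arrays than at the median of the falls. For 5 cytokinin genes that rose it lay at 0.689 and for 4 low-oxygen genes at 0.498. Replete array 1 lay at 1.02 for the membrane lipid genes and 1.10 for the root hair genes, and at 0.652 for 3 low-oxygen genes. Starved array 3 thus lay nearer the starved arrays on the Pi lists and about midway on many of the genes that rose. Over all probe sets it lay at 0.815 for falls of 3 log2 units or more and at 0.656 for falls under 1. The place of the Pi lists was therefore near that of large falls in general. The part of these 2 arrays in the results was not tested beyond leaving them out.

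**Figure D1:**
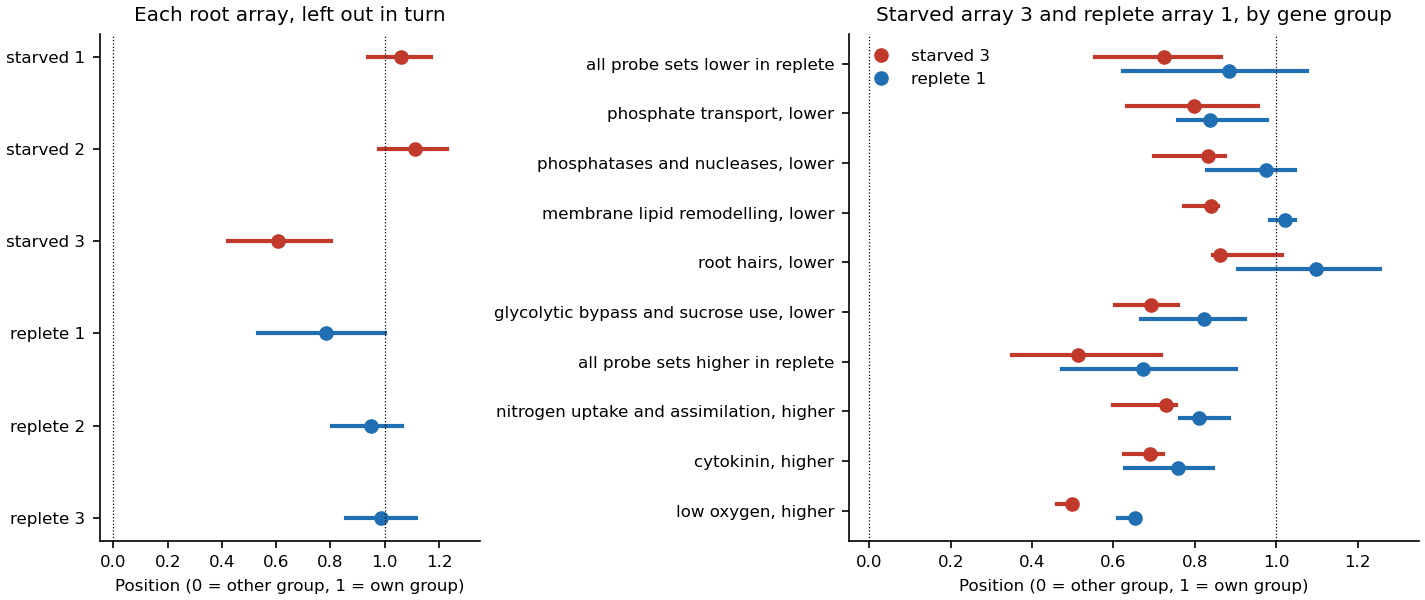
Position of root arrays between the opposite group (0) and the other 2 arrays of their own group (1), on probe sets called in the fit without the array; points are medians and bars the quartiles over probe sets. On the left, starved array 3 lies at 0.606 and replete array 1 at 0.783, while the other 4 arrays lie between 0.948 and 1.11. On the right, starved array 3 lies at 0.862 for root hair genes and at 0.498 for low-oxygen genes.

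Root identity was checked with PYK10, the abundant root beta-glucosidase of ER bodies, which lay between 11.91 and 12.30 on the 6 arrays. The other named root markers, the root hair genes EXPA7 and EXPA18, were called lower, at -1.20 and -1.43. They are described with the root hair genes below. The 4 green-tissue markers with a name, PRK, RCA, SBPASE and LHCB4.1, lay between 2.64 and 7.72. Their summed log2 level was 17.5 to 18.8 on the starved and 18.7 to 19.7 on the replete arrays. On the mock arrays it was 17.8 to 19.6. LHCB4.1, an antenna protein of photosystem II, rose by 1.23 (SE 0.16, adjusted p = 4.66e-05). The photosynthetic enzymes RCA, SBPASE and PRK differed by 0.46, -0.30 and -0.59 and did not pass. The part of LHCB4.1 in the other rises was not tested. In whole roots, fewer cells of a type and less RNA per cell cannot be told apart.

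Pi transport genes with a study name mostly fell. Of 17 listed members 10 had a name. Of these 10 named members 8 were lower and 1 higher, all 9 of them study-named. The only platform-named member, the vacuolar Pi transporter AT1G63010 (PHT5;1), differed by -0.42 (SE 0.13) and did not pass. PHT1;8, a high-affinity root uptake transporter, stood at 8.09, 8.56 and 8.13 on starved arrays 1, 2 and 3 and at 4.15, 4.53 and 4.1 on the replete arrays. The groups lay far apart, with no starved array near the replete ones, and the fall was 4.00 (SE 0.16, adjusted p = 5.24e-11), back to the mock mean of 4.1. PHT1;9, its close relative, went from 8.13, 8.09 and 8.10 to 5.49, 4.62 and 4.81. Here replete array 1 was the highest replete array, and the fall was 3.13 (SE 0.17).

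The other transporters moved less. PHF1, which lets PHT1 proteins leave the endoplasmic reticulum, fell by 2.18 (SE 0.10), PHO1;H1, a PHO1 homologue, by 2.26 (SE 0.17), PHT1;3 by 2.01 (SE 0.23) and PHT1;5, which moves Pi between source and sink organs, by 1.82 (SE 0.25). For PHT1;3 starved array 3 stood at 5.46 against 6.43 and 6.54. The plastid transporter PHT2;1 fell by 1.29 (SE 0.18) and the mitochondrial PHT3;1 by 0.54 (SE 0.09). PHO1, the exporter that loads Pi into the xylem, was the single member that rose. It stood at 9.12, 9.25 and 9.28 on the starved and 9.93, 10.30 and 10.20 on the replete arrays, a rise of 0.93 (SE 0.13, adjusted p = 9.62e-05) past the mock mean of 9.63. The count of 8 lower members was 5 with the 9 root arrays alone and 4 with the 6 arrays of the recovery alone or with Bonferroni adjustment.

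Among regulators of Pi sensing, the SPX genes and LPR1 fell. SPX1, a nuclear inhibitor of PHR1, went from 11.70, 11.94 and 11.39 to 6.18, 5.83 and 5.73, a fall of 5.76 (SE 0.20, adjusted p = 2.47e-11). SPX3 went from 9.73, 9.53 and 8.65 to 4.02, 3.61 and 3.49 and fell by 5.60 (SE 0.33). SPX2 fell by 2.08 (SE 0.12). On all 3 genes the groups were wide apart, and starved array 3 was the lowest starved array. Of the 5 platform-named members LPR1, a multicopper oxidase that stops primary root growth on low Pi, was lower by 1.06 (SE 0.14), and 4 did not pass. The latter were SIZ1, a SUMO ligase that acts on PHR1, LPR2, and the PHO1 repressors WRKY6 and WRKY42, with differences between -0.24 and 0.35.

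All 9 named phosphatases fell, 8 of them study-named. PAP17, a purple acid phosphatase induced by Pi shortage and senescence, went from 10.95, 11.11 and 10.32 to 5.55, 5.37 and 5.42, a fall of 5.35 (SE 0.21, adjusted p = 5.24e-11). Its replete arrays stayed 0.68 above the mock mean of 4.77. PEPC1 (AT1G17710, also PECP1), which splits phosphoethanolamine and phosphocholine, went from 9.31, 9.32 and 8.03 to 2.43, 2.44 and 2.44. The replete arrays lay 0.31 below the mock mean, and the fall was 6.45 (SE 0.44). PS2 (AT1G73010, also PPsPase1), a pyrophosphate-specific phosphatase, fell by 6.24 (SE 0.43). The secreted PAP12 and PAP10 fell by 2.26 (SE 0.16) and 2.0 (SE 0.18), and PAP6, PAP22, PAP23 and the platform-named AT1G13750, another purple acid phosphatase, by between 1.26 and 2.1. The count of 9 was 5 with the 6 arrays of the recovery alone. It was 6 when probe sets with a root mean under 5 were left out.

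Membrane lipid genes with a study name fell. Of 20 listed members 13 had a name. Of these 13 named members 12 were lower, all study-named, and 1 was higher, the only platform-named member. MGDC (MGD3), which makes monogalactosyldiacylglycerol outside the plastid interior, went from 10.99, 11.17 and 10.16 to 4.36, 4.43 and 4.24. The fall was 6.43 (SE 0.28, adjusted p = 2.73e-10), to within 0.15 of the mock mean. MGD2 fell by 3.73 (SE 0.25), and DGD2 and DGD1, which add the second galactose, by 1.43 (SE 0.11) and 1.11 (SE 0.12).

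The sulfolipid branch fell along its whole course. UGP3, which makes UDP-glucose in plastids, fell by 2.83 (SE 0.25), SQD1, which makes UDP-sulfoquinovose, by 3.24 (SE 0.19), and SQD2, the last enzyme, by 4.16 (SE 0.24). The genes that break phospholipids down followed. The phospholipase D gene PLDP2 (PLDZ2) went from 8.22, 8.75 and 7.78 to 3.96, 3.99 and 4.28, a fall of 4.17 (SE 0.24), and the phosphatidate phosphatase PAH1 fell by 1.30 (SE 0.14). The glycerophosphodiesterases SRG3 (GDPD1), GDPD5 and GDPD2 fell by 3.65, 1.50 and 1.42. The member that rose was AT1G73600 (NMT3), a phosphoethanolamine methyltransferase of phosphatidylcholine synthesis. It stood at 7.62, 7.27 and 7.57 on the starved and 10.20, 9.80 and 9.26 on the replete arrays, with no overlap, a rise of 2.27 (SE 0.18, adjusted p = 2.89e-07). Its mock mean was 9.98.

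**Figure D2:**
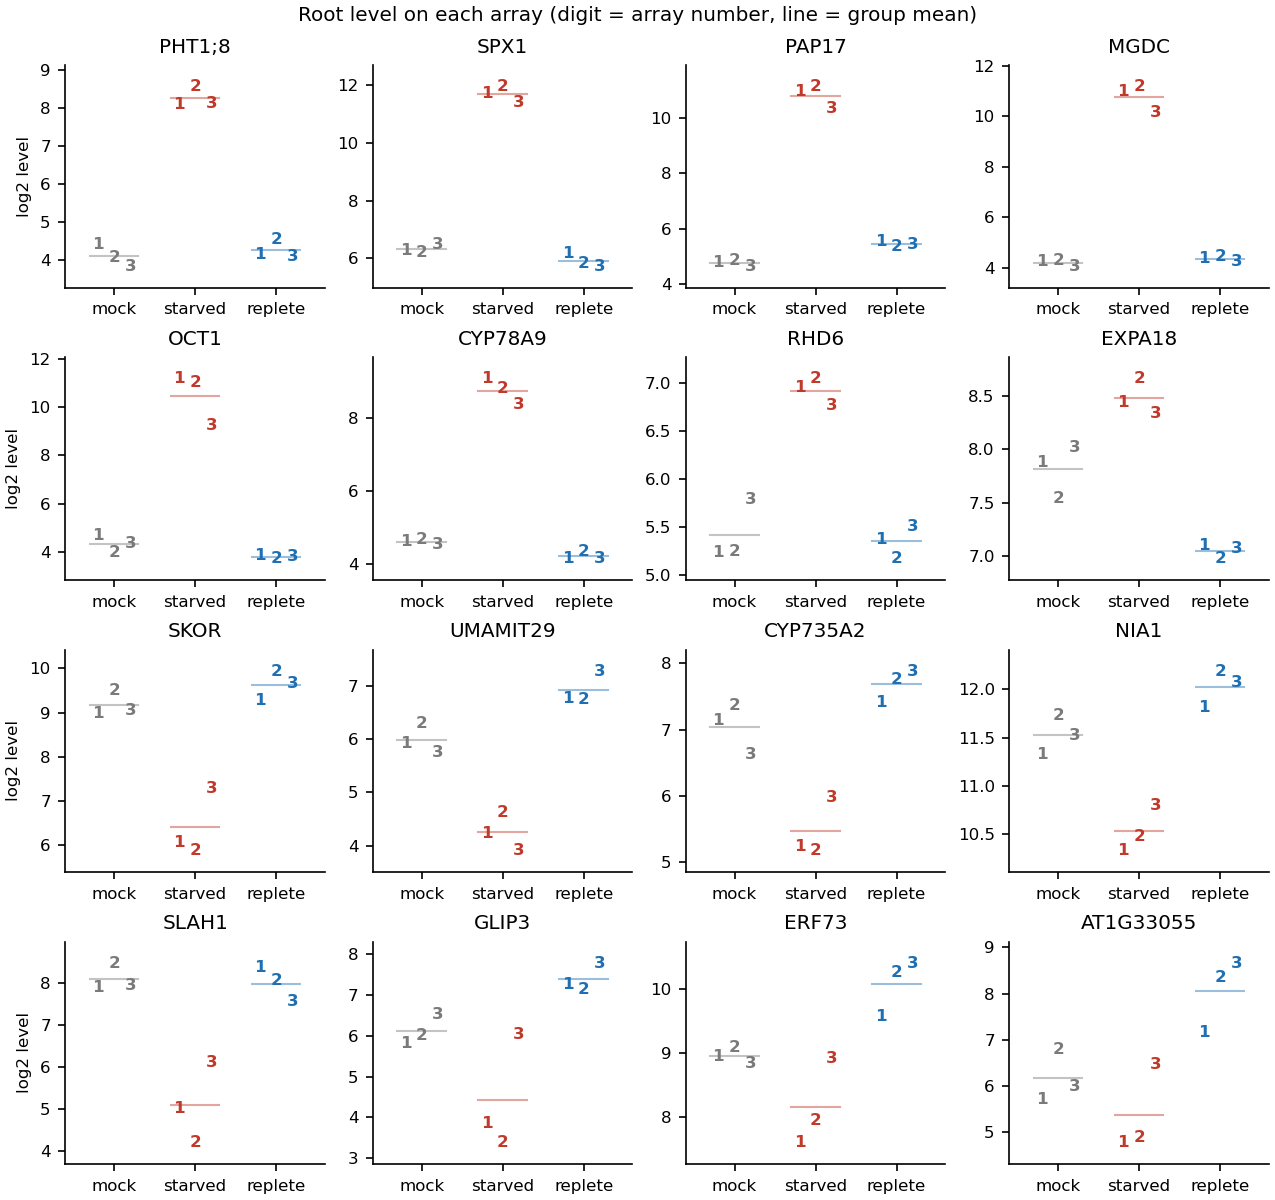
Log2 level of 16 genes on each root array; digits are the array numbers within mock, starved and replete roots, the line is the group mean, and each panel has its own scale that does not start at 0. In the upper 2 rows all starved arrays stand above all mock and replete arrays, and in the lower 2 rows starved array 3 is the highest starved array except for UMAMIT29, as for SKOR at 7.29 against 6.05 and 5.88.

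The largest falls outside these lists belonged to carriers and to genes of little-known function. AT5G20790, a gene of unknown function, had the largest change of any named probe set, from 11.85, 11.95 and 11.20 to 3.59, 3.60 and 3.78, a fall of 8.01 (SE 0.29). No detection call was used for any probe set, so whether levels as low as its replete values stood above background was not tested. This holds too for other genes with levels as low, such as PEPC1 above. Among the called probe sets, 69 higher and 132 lower ones had a mean under 5 over the mock, starved and replete root arrays. OCT1, an organic cation and carnitine transporter, went from 11.18, 11.04 and 9.24 to 3.84, 3.72 and 3.79 and fell by 6.70 (SE 0.34). AT5G17340 fell by 6.50 (SE 0.32) and AT2G04460 by 6.08 (SE 0.15). On AT5G17340 starved array 3 stood at 8.18 against 9.71 and 9.97, and on AT2G04460 the 3 starved arrays lay close together, at 8.75, 8.46 and 8.59. G3Pp1, a glycerol-3-phosphate permease homologue, fell by 4.52 (SE 0.34), the cytochrome P450 gene CYP78A9 by 4.53 (SE 0.21), and the carboxypeptidase-like gene scpl22 by 4.31 (SE 0.28). For G3Pp1 replete array 1 stood at 7.35 against 6.28 and 5.95, the highest of its group and near the mock mean of 7.44.

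Study-named carbon metabolism genes of glycolytic bypass and sucrose use mostly fell, and their calls were less firm. Of 19 listed members 10 had a name. Of these 10 named members 7 were lower and 1 higher, all study-named, and 2 did not pass. The latter were PPCK2 at -1.48 (SE 0.31, adjusted p = 0.00247) and the platform-named APL3 at -0.46 (SE 0.25). SPS2F, a sucrose-phosphate synthase, fell by 3.12 (SE 0.20), from 7.71, 7.99 and 7.27 to 4.85, 4.54 and 4.21. PPC2, PPC3 and PPC1, the phosphoenolpyruvate carboxylases, fell by 1.89, 0.95 and 0.95, the sucrose synthase SUS4 by 1.24, UGP1, which makes UDP-glucose in the cytosol, by 0.95, and AOX1A, the alternative oxidase of mitochondria, by 0.88. PCK1, the carboxykinase of gluconeogenesis, rose by 0.92 (SE 0.15), and its starved array 3 stood at 9.27 against 8.68 and 8.66, near the mock mean of 9.40. The count of 7 was 4 when arrays were centred on reference genes or spike-in controls, 4 without replete array 2 or with the 9 root arrays alone, 3 without starved array 1 or 2 or replete array 3, and 2 with the 6 arrays of the recovery alone or with Bonferroni adjustment.

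Named root hair genes fell, on names from both tables, and 20 of 29 listed members had a name. All 5 platform-named members were lower and 14 of 15 study-named ones, and none was higher. RHD6, the bHLH factor that starts hair growth, went from 6.95, 7.04 and 6.76 to 5.37, 5.17 and 5.50, a fall of 1.57 (SE 0.15, adjusted p = 2.03e-06) to the mock mean of 5.42. Platform-named members included the wall-loosening expansins EXPA18 and EXPA7, the xyloglucan hydrolase XTH26 and the peroxidase AT1G30870. They fell by 1.43, 1.20, 1.33 and 1.10. EXPA18 stood at 8.44, 8.66 and 8.34 on the starved and 7.10, 6.98 and 7.07 on the replete arrays, and the replete arrays lay 0.76 below the mock mean of 7.81.

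The study-named hair genes had falls of like size. They included the wall proteins PRP3 (1.40, SE 0.14) and XTH14 (1.52, SE 0.16), the phosphatidylinositol transfer protein COW1 (1.25, SE 0.13), the kinases IRE (1.33), PERK13 (1.22) and PIP5K3 (1.13), and CSLD3, a cellulose synthase-like protein of the hair tip (0.64, SE 0.10). RHS16, RHS19, RHS8, RHS12 and RHS13, known by their hair-specific expression, and HA7, a proton pump, fell by between 0.84 and 1.66. RHS18 differed by -1.07 with an adjusted p of 0.00135 and did not pass. RHS19 stood at 10.52, 10.51 and 10.59 on starved arrays 1, 2 and 3 and fell by 1.11 (SE 0.10), with array 3 the highest of the starved arrays. The count of 19 was 12 with the 9 root arrays alone and 6 with the 6 arrays of the recovery alone or with Bonferroni adjustment.

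**Figure D3:**
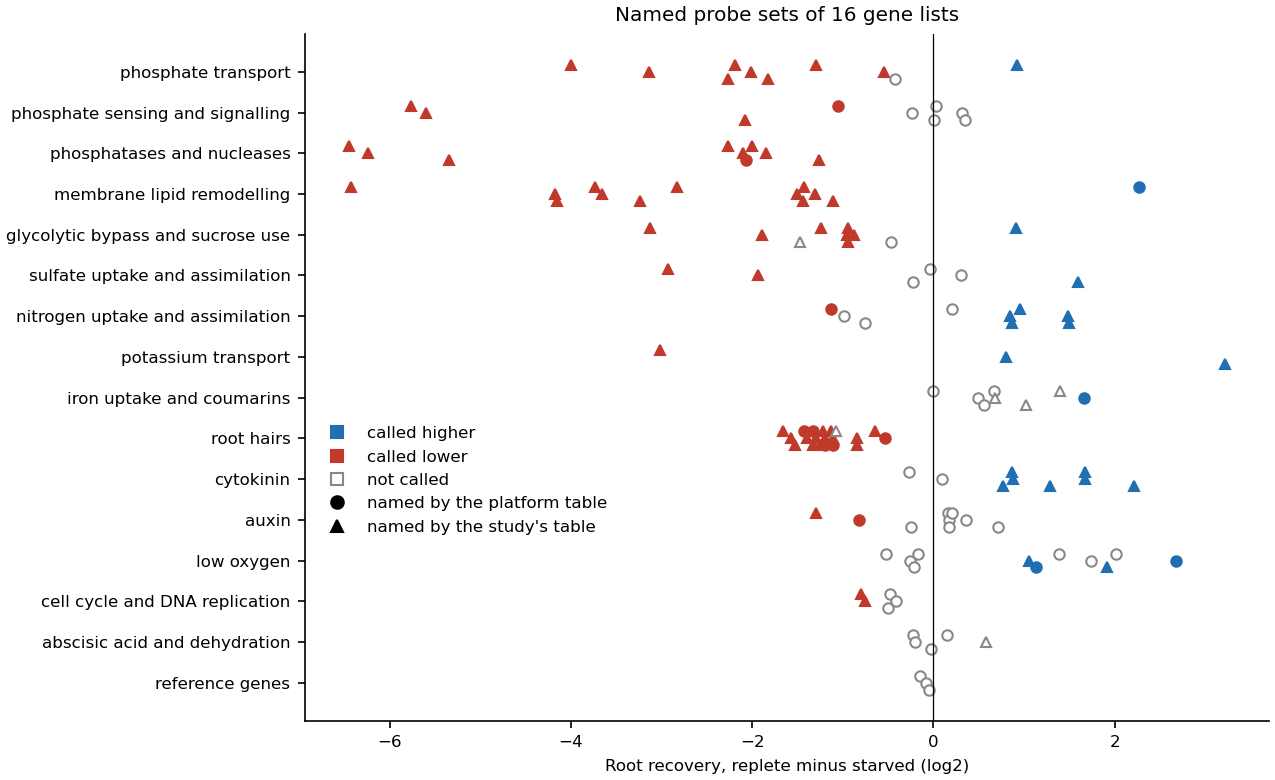
Root recovery, replete minus starved in log2 units, of each named probe set on 16 gene lists; filled symbols passed the threshold, circles have a platform name and triangles a name from the study's table only. The Pi transport, phosphatase, lipid and root hair lists lie to the left of 0, with PHO1 at 0.93 and AT1G73600 at 2.27 as the exceptions, and the cytokinin list holds 7 higher and no lower member.

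Genes of cytokinin synthesis and response with a study name rose. Of 9 named members 7 were higher and none lower, the 7 all study-named, and the platform-named response regulators ARR15 and RR16 (ARR16) differed by -0.27 (SE 0.19) and 0.09 (SE 0.17) and did not pass. IPT3, an isopentenyltransferase that starts cytokinin synthesis and is known to answer nitrate, stood at 6.18, 5.84 and 6.52 on the starved and 7.74, 8.06 and 7.75 on the replete arrays. The groups did not overlap, and the rise of 1.67 (SE 0.18, adjusted p = 8.12e-06) reached the mock mean of 7.91. CYP735A2 and CYP735A1, which turn the first product into trans-zeatin forms, rose by 2.22 (SE 0.26) and 1.28 (SE 0.20), IPT7 by 0.76 (SE 0.12), and CKX4, which breaks cytokinin down, by 0.86 (SE 0.14). The cytokinin response factors CRF6 and CRF5 rose by 1.67 (SE 0.23) and 0.88 (SE 0.15). On CRF6 starved array 3 stood at 6.24 against 5.31 and 5.22, above its mock mean of 6.12. The count of 7 was 4 without starved array 1, replete array 1 or both starved array 3 and replete array 1, 3 without starved array 2 or replete array 2, 2 with the 9 root arrays alone, and 0 with the 6 arrays of the recovery alone or with Bonferroni adjustment.

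Genes of nitrogen assimilation rose on study names alone. Of 9 named members 5 were higher, all study-named, and of the 4 platform-named ones none was higher and 1 lower, with a median of -0.87. NIA1, a nitrate reductase, stood at 10.33, 10.47 and 10.80 on the starved and 11.81, 12.19 and 12.07 on the replete arrays, a rise of 1.49 (SE 0.13, adjusted p = 7.15e-07). The nitrite reductase NIR1 rose by 0.96 (SE 0.12), the glutamate synthase GLT1 by 0.84 (SE 0.12), the glutamate dehydrogenase GDH1 by 1.49 (SE 0.25) and LBD37, a nitrate-induced repressor of anthocyanin genes, by 0.86 (SE 0.16). For LBD37 starved array 3 stood at 9.21, within the mock range of 9.03 to 9.34. AT1G68670 (HHO2), a Pi- and nitrate-responsive repressor, was the platform-named member that passed and fell by 1.13 (SE 0.10), while its relatives AT3G25790 (HHO1) and AT1G25550 (HHO3) differed by -0.99 and -0.75 and did not pass. The count of 5 was 2 without starved array 1 or 2, 3 without replete array 2 or 3 or with the 9 root arrays alone, 1 with Bonferroni adjustment and 0 with the 6 arrays of the recovery alone.

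The channel genes SKOR and SLAH1 of the xylem parenchyma and stele were among the leading rises. The 3 named members of the potassium list and SLAH1 all had a study name only, so their calls are no independent evidence. SKOR, the outward channel that releases potassium into the xylem, stood at 6.05, 5.88 and 7.29 on the starved and 9.28, 9.94 and 9.65 on the replete arrays, against a mock mean of 9.17. Its rise of 3.22 (SE 0.27, adjusted p = 5.65e-07) was 3.66 without starved array 3. SLAH1, an anion channel subunit of the stele that takes part in chloride loading, stood at 5.01, 4.21 and 6.12 on the starved and 8.36, 8.05 and 7.55 on the replete arrays and rose by 2.87 (SE 0.33). The inward potassium channel KT1 (AKT1) rose by 0.80 (SE 0.13). CHX17, a cation and proton exchanger induced by potassium shortage, moved the other way, from 7.58, 7.92 and 7.90 to 5.64, 4.37 and 4.35, with replete array 1 the highest of its group. Its fall was 3.01 (SE 0.40).

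Sulfate and metal genes were divided. SULTR3;5, which helps load sulfate for transport to the shoot, rose by 1.59 (SE 0.13). SULTR1;3, a phloem sulfate transporter, fell by 2.93 (SE 0.27) and the low-sulfur marker LSU2 by 1.94 (SE 0.34), and the 3 platform-named sulfate genes did not pass. HMA4, which loads zinc into the xylem, rose by 1.10 (SE 0.14), and the iron store FER3 fell by 1.52 (SE 0.20). Of 8 named iron uptake and coumarin genes only AT3G12900 (S8H), which makes the coumarin fraxetin, passed. It stood at 9.04, 8.86 and 9.18 on the starved and 10.68, 10.74 and 10.63 on the replete arrays, a rise of 1.66 (SE 0.17) that ended 0.57 below the mock mean.

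The metal transporter genes MTPA1 and ZIP9, both platform-named, did not pass in the recovery. MTPA1, of the metal tolerance protein family, stood at 9.08, 8.94 and 9.17 on the mock, 5.50, 5.28 and 6.37 on the starved and 5.16, 4.94 and 4.36 on the replete arrays. Its recovery was -0.90 (SE 0.25, adjusted p = 0.0141), and -0.57 (adjusted p = 0.0616) without starved array 3, and the replete arrays lay 4.24 below mock. ZIP9 differed by -0.86 (SE 0.30, adjusted p = 0.0431) in the recovery and lay 2.17 below mock. In the limma test of replete minus mock MTPA1 passed (adjusted p = 1.5e-07) and ZIP9 did not (adjusted p = 0.00163).

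Low-oxygen genes rose in part and depended on the arrays. Of 11 named members 4 were higher, 2 with a platform name among 9 and both study-named ones, and none was lower. The median of the 9 platform-named members was 1.14. ERF73 (HRE1), an ethylene response factor induced by oxygen shortage, stood at 7.60, 7.95 and 8.92 on the starved and 9.57, 10.25 and 10.40 on the replete arrays, so that starved array 3 was at the mock mean of 8.95. Its rise was 1.92 (SE 0.26, adjusted p = 7.45e-05). AT1G33055, a low-oxygen gene of unknown function, stood at 4.78, 4.90 and 6.47 on the starved and 7.17, 8.35 and 8.66 on the replete arrays and rose by 2.68 (SE 0.45), 3.22 without starved array 3. HB1, a hemoglobin, and PDC2, a pyruvate decarboxylase of fermentation, rose by 1.06 (SE 0.18) and 1.14 (SE 0.20). The members AT1G19530, AT4G27450 and CML38 differed by 2.01, 1.74 and 1.39 and did not pass. The remaining members AT4G24110, AT3G27220, AT4G10270 and AT5G10040 lay below 0, at -0.52, -0.26, -0.22 and -0.17, and did not pass. The count of 4 was 1 without starved array 1, replete array 2 or replete array 3, 2 without starved array 2, and 0 with the 9 root arrays alone, with the 6 arrays of the recovery alone or with Bonferroni adjustment.

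Of the hormone lists other than cytokinin, 2 of 9 auxin genes fell. These were ARF9, an auxin response factor, by 1.29 (SE 0.12), and IAA31, a repressor of auxin responses, by 0.82 (SE 0.10). The abscisic acid list had 5 named members with differences between -0.23 and 0.58, the jasmonate list 2 with -0.28 and -0.06, and none passed. Of the mitotic genes CDKB2;2, a cell cycle kinase, and CYCB1;3, a B-type cyclin, fell by 0.79 (SE 0.13) and 0.75 (SE 0.13). The platform-named AUR1, AUR2 and PRL (MCM7) differed by -0.50, -0.48 and -0.41 and did not pass. Of 5 platform-named heat shock genes AT1G52560, a small heat shock protein, was lower by 0.89 (SE 0.16). FAR1, a fatty acyl reductase of suberin, rose by 1.25 (SE 0.22), and the aquaporin PIP2E (PIP2;6) fell by 0.85 (SE 0.11). The 3 reference genes differed by between -0.14 and -0.04.

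Several transcription factors rose, most of them study-named. AGL44, AGL12, AGL71, WRKY23, WRKY39, WRKY7 and MYB85 stand on a list that the study singled out in these roots, so their direction is not independent evidence. The same holds for OCT1, SULTR1;3, CHX17, IPT3, CRF6, CRF5, ERF73, ARF9 and IAA31 above. AGL44 (ANR1), the MADS-box factor of lateral root growth in nitrate, stood at 4.56, 4.43 and 4.91 on the starved and 6.22, 6.87 and 6.80 on the replete arrays and rose by 2.0 (SE 0.17, adjusted p = 7.62e-07). AGL12, a root MADS-box factor, and the platform-named AGL71 rose by 0.97 (SE 0.11) and 0.88 (SE 0.11). Of 11 WRKY genes the 4 with a study name were higher, among them WRKY23 by 0.93 (SE 0.14), and the 7 with a platform name did not pass, with a median of 0.10. Of 23 bZIP genes 4 were higher and none lower, with 1 of 20 platform-named members among them. MYB85, a factor of lignin formation, rose by 1.32 (SE 0.22), and MYBL2, a repressor of flavonoid genes, by 2.35 (SE 0.29).

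Several of the remaining leading rises differed widely between the starved arrays. AT5G26130, a gene related to pathogenesis-related protein PR-1, was the largest. It stood at 2.98, 3.37 and 3.08 on the starved and 7.21, 6.58 and 7.65 on the replete arrays, a rise of 4.00 (SE 0.24, adjusted p = 8.59e-09). UMAMIT29, an amino acid exporter, stood at 4.23, 4.62 and 3.91 against 6.77, 6.74 and 7.28 and rose by 2.68 (SE 0.18). AT4G39675, of unknown function, stood at 7.60, 7.55 and 8.94 against 11.33, 11.98 and 12.15 and rose by 3.79 (SE 0.33). DIR5, a dirigent protein of lignan coupling, rose by 3.20 (SE 0.44) with starved values of 3.35, 3.43 and 5.25. GLIP3, a GDSL lipase, rose by 2.97 (SE 0.44) with 3.85, 3.38 and 6.03.

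On DIR5, GLIP3 and AT4G39675 starved array 3 was the highest starved array by more than 1 log2 unit. The same held for AT5G19890, a class III peroxidase, which rose by 3.09 (SE 0.30), for AT1G80380, the glycerate kinase of photorespiration (2.54, SE 0.34), and for AT5G10210, AT5G62360, a pectin methylesterase inhibitor relative, and AT5G56100 (2.40, 2.42 and 2.38). It did not hold for AT4G16000 (2.50, SE 0.21) and AT2G21210, a SAUR-like auxin-responsive gene (2.44, SE 0.29). AT5G62360 stood at 6.48, 6.37 and 8.35 on the starved arrays and 8.78 on replete array 1, and its adjusted p was 0.000899.

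The 7 recovery genes on which replete and mock roots also differed were 4 that ended above mock and 3 that ended below. AT5G26130 ended 2.96 above mock. AT1G33813 went from 2.31, 2.22 and 2.63 to 4.26, 3.87 and 4.78, with a mock mean of 2.65. SVP, a MADS-box repressor of flowering, and GPX1, a plastid glutathione peroxidase, rose by 0.53 (SE 0.08) and 0.94 (SE 0.12) and ended 0.69 and 0.92 above mock. AT5G51890, a peroxidase, AT4G12360, a lipid-transfer protein relative, and BSK9, a brassinosteroid signalling kinase, fell by 1.49, 1.56 and 1.85. They ended 1.17, 1.63 and 1.24 below mock. On each of the 7 genes the mock and starved means lay closer together than either did to the replete mean.

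The root recovery was set against that of shoots through the difference of the 2 recoveries, which 250 probe sets passed, 1.1% of those tested. In the shoot recovery itself 24 probe sets were called higher, 0.106% of those tested, and 137 lower, 0.602%. Of the 634 lower root probe sets 73 were also called lower in shoots and 108 passed the test of the difference. Of the 537 higher ones none was called higher in shoots and 95 passed it. OCT1 fell by 6.70 in roots and differed by -0.36 in shoots (limma, adjusted p of the difference = 1.67e-06). CYP78A9 fell by 4.53 in roots with -0.88 in shoots, and PHT1;8 by 4.00 with 0.13 in shoots, and both passed. SKOR rose by 3.22 with -0.08 in shoots (adjusted p of the difference = 8.61e-05). MGD2 fell by 3.73 in both organs, and SPX2 by 2.08 and 2.03. PHO1 rose by 0.93 in roots with -0.89 in shoots, and PPC3 fell by 0.95 in roots with 0.93 in shoots, and both passed the test of the difference.

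**Figure D4:**
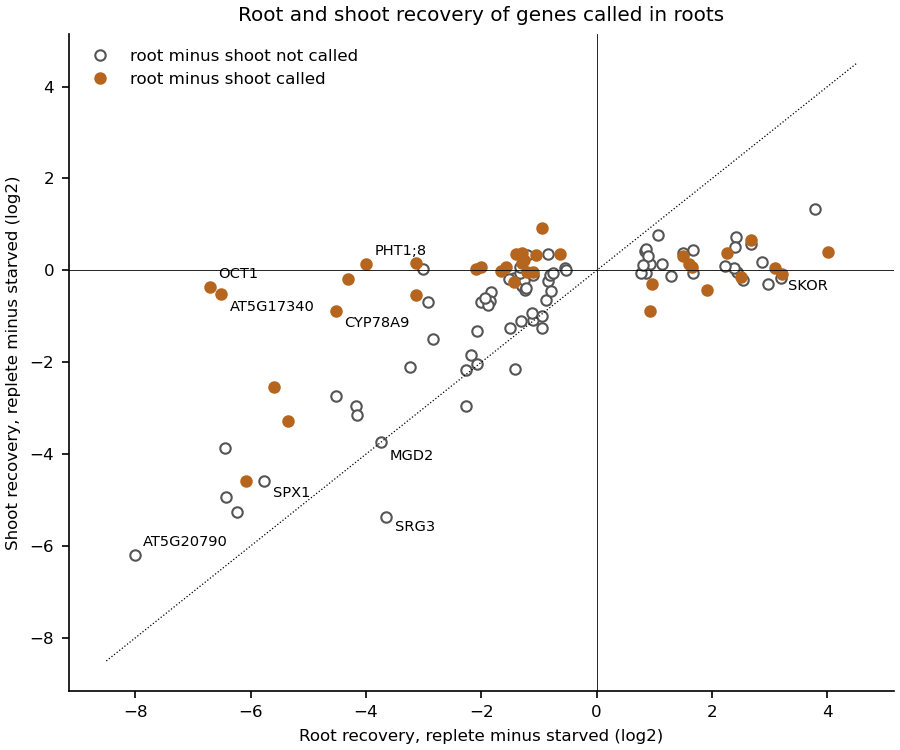
Root recovery against shoot recovery, both replete minus starved in log2 units, of 110 probe sets called in roots that lead the rises and falls or stand on the 16 lists; filled points, 36 in number, passed the test of root minus shoot, and the dotted line marks equal change. OCT1, AT5G17340 and PHT1;8 fell in roots and lie near 0 for shoots, while MGD2 lies on the line. Whether starvation had moved the genes near 0 in shoots was not tested here.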

How the data were processed

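Root and shoot RNA of mock, starved and replete plants was hybridised to 18 ATH1 arrays, 3 per organ and condition. The deposited values are log2 levels that the authors made from the scanned arrays by affy, an R package of unstated version, with background correction, quantile normalisation and a median-polish summary. Quantile normalisation gives all arrays 1 distribution, so a shift of all genes at once cannot show. Arrays have no read depth, and their number, 3 per group, limits the precision. A limma 3.58.1 model (R 4.3.3, lmFit and eBayes) with 6 group means was fitted to all 18 arrays, with Benjamini-Hochberg adjustment over 22746 probe sets, and was tested on simulated data.

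Genes named are the 15 largest rises and 15 largest falls with a single gene and no overlap between groups, up to 4 genes per list by p, and further list members whose values were seen first. The members and the lists were chosen with earlier results of these data known. Platform symbols were updated through RefSeq (TAIR10.1), which matched 13436 of 13513, and the 2 naming tables gave the same gene for 647 of 649 probe sets in both. Alternatives changed the threshold, the arrays fitted, the weighting and the centring, and left out each root array in turn. The search for promoter motifs was not run. The single values of 1 root hair gene are not reported here.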

Additional observations from a re-analysis of the deposited data

Results flagged for a closer look

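For 43 of the named genes the root and shoot recoveries differed by limma's test of the difference at an adjusted p at or under 0.001. These genes were chosen by their root recovery, which the difference contains, so their number is a description. Whether starvation had moved each of them in shoots was not tested here. Values are root minus shoot recovery in log2 units, 3 arrays per group. Groups of 3 arrays are too small for a test of single arrays that stand apart.

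Among Pi genes the difference was -4.13 for PHT1;8, -3.28 for PHT1;9, -2.09 for PHT1;3, 1.81 for PHO1, -3.05 for SPX3, -1.38 for LPR1, -2.07 for PAP17 and -2.12 for PAP6. Of the lipid and carbon genes it was -1.18 for DGD2, 1.89 for AT1G73600, -2.59 for SPS2F and -1.88 for PPC3. Among the other leading falls it was -6.35 for OCT1, -5.98 for AT5G17340, -4.12 for scpl22, -3.65 for CYP78A9 and -1.51 for AT2G04460. Root hair genes gave -1.65 for RHD6, -1.75 for PRP3, -1.49 for COW1, -1.65 for RHS16, -1.67 for RHS12, -1.16 for RHS8, -1.08 for RHS19 and -0.99 for CSLD3. ARF9 gave -1.44 and BSK9 -1.96.

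Genes that rose in roots gave 3.30 for SKOR, 3.61 for AT5G26130, 3.04 for AT5G19890, 2.64 for AT4G16000, 2.02 for UMAMIT29 and 1.96 for AT1G33813. The regulators gave 2.70 for MYBL2, 2.35 for ERF73, 2.05 for AGL44, 1.13 for AGL12 and 0.71 for SVP. The transport and assimilation genes gave 1.46 for SULTR3;5, 1.38 for HMA4, 1.19 for NIA1, 1.25 for NIR1 and 1.59 for AT3G12900.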

How the results depend on the processing

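Of 1171 called probe sets, with 537 higher and 634 lower, Bonferroni adjustment left 165 (37 and 128), a fit to the 9 root arrays 438 (132 and 306) and one to the 6 arrays of the recovery 130 (20 and 110). Array weights gave 2760 (1495 and 1265), an adjusted p at or under 0.05 gave 5989 (2826 and 3163) and a required change of 1 log2 unit 573 (231 and 342). Leaving out 1 array gave 571 to 1532 calls, 215 to 830 higher and 345 to 702 lower. Without starved array 3, 990 of the 1171 calls were shared, without replete array 1, 850, and without both, 904 of 1662 calls, 959 higher and 703 lower. The organ difference, 250 probe sets, became 28 with Bonferroni adjustment, 803 with array weights, 3587 at 0.05, 752 without both arrays and 108 to 461 without 1 array. Of 105 called listed genes 39 passed Bonferroni adjustment, 65 with the 9 root arrays and 33 with 6.

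Of 149 named genes 127 were called, and none of these changed direction under any alternative. The WRKY6 root recovery, which was not called and lay at 0.0033, took -0.14 with array weights, -0.0259 with quantile normalisation within organ, -0.13 without both arrays, and -0.165 to 0.15 without 1 array. With the replicate number as a block 1307 probe sets were called, 651 higher and 656 lower. Same-numbered starved and replete root arrays correlated at -0.109, 0.0507 and 0.168. The own number correlated best for numbers 2 and 3 and not for number 1. Whether equal numbers pair the samples of the recovery cannot be told from these values, and the main fit did not pair them. Over all groups 20 of 45 same-number pairs were over 0.1, and in 30 the own number correlated best. Shoot mock and shoot replete arrays were the 2 groups with every number over 0.1, at 0.182, 0.151 and 0.297. The cause of these shifts was not tested.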

Other observations

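Other gene families also moved, and they were picked after their values were seen, so they are described without a test of the family. The ATG8 proteins, which coat autophagosomes, all had a platform name, and of 7 members 3 were higher and 1 lower with a median of 0.63. ATG8B rose by 1.54 (SE 0.10), ATG8G by 0.79 and ATG8C by 0.63, and ATG8H fell by 0.96 (SE 0.14). Of 45 named MADS-box genes 7 were higher and none lower, 2 of 40 with a platform name and all 5 with a study name. The 40 had a median of 0.0033, and 2.06% of all platform-named probe sets were called higher. AGL72 rose by 1.04 (SE 0.16) and AGL20 (SOC1), a promoter of flowering, by 0.66 (SE 0.09).

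Of 6 UMAMIT amino acid transporters, all study-named, 5 were higher, among them UMAMIT17 by 1.91 (SE 0.30), and UMAMIT14 fell by 2.85 (SE 0.35). The sucrose-phosphate synthases ATSPS4F, platform-named, and SPS1F fell by 2.97 (SE 0.25) and 1.62 (SE 0.17), beside SPS2F. The soluble pyrophosphatases PPa3, PPa4 and PPa5, which split pyrophosphate in the cytosol, fell by 2.58, 1.62 and 1.19. Of 5 study-named PP2-A phloem lectin genes 4 were higher, by 0.80 to 1.50.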
